A study of Mus musculus with 2 samples.

Results

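The guides described here were present in the uninduced cells of a pooled CRISPR knockout screen but close to the limit of detection. They were chosen by their read count in the uninduced input: all guides with 1 to 99 reads, 3740 of the 79633 guides of the library, or 4.70%. Input reads therefore define the set and are given only as a description. Guides with 800 to 1200 input reads, around the library median of 939, served as the comparison set and numbered 16753, or 21% of the library. In the accounts below, "scarce guides" are those with 1 to 99 input reads and "comparison guides" are those with 800 to 1200.

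The cells were bone marrow derived macrophages from R26-Cas9-KI mice, immortalised with the J2 retrovirus and engineered to carry the Tet3G transactivator together with a caspase-cleavage fragment of gasdermin D (GSDMD), which forms membrane pores, fused to the fluorescent protein tagBFP and switched on by doxycycline. They were transduced with Brie, a genome-wide lentiviral library of mouse single guide RNAs with a blasticidin resistance marker. Both groups therefore carried Cas9, the transactivator, the inducible GSDMD fragment and the guide library. One group, the uninduced input, received no doxycycline. The other received doxycycline at 0.5 μg/ml, and after 16 h the living cells with the fragment (BFP+ PI-) were sorted as survivors. Each group was 1 library read from genomic DNA, so differences between them could not be set against replicate spread and were not tested. The labels give neither the number of cells nor the number of cultures behind a library. Guide counts hold no expression values, so the macrophage label was not checked against marker genes.

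In a pooled knockout screen each cell carries an integrated guide, and Cas9 cuts the genomic site that matches it next to an NGG motif, the PAM. Cells in which a gene needed for growth is cut leave fewer descendants, so guides to ribosome, proteasome or RNA polymerase genes are typically depleted from a growing population, and several guides to such a gene tend to be depleted together. The base next to the PAM (position 20) and the G and C content of the PAM-proximal part of the guide are features used when guides are designed for cutting activity. A guide can also be rare because the plasmid pool held little of it (that pool was not analysed here), or because of how it was cloned, amplified or counted. For the scarce guides as a whole these sources cannot be told apart.

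The largest clusters of overlapping scarce guides are shown first, because guides that share most of their bases are expected to cut nearly the same place. Overlap was taken as at least 14 bases shared end to end on the same or on opposite strands. Each guide is written 5′ to 3′, and capitals mark the bases common to all guides of its cluster, read as the reverse complement in guides of the other strand.
Cluster 1, guide 1: aGTGCTGCGCGATAacatcc
Cluster 1, guide 2: GTGCTGCGCGATAacatcca
Cluster 1, guide 3: TATCGCGCAGCACtttgcgg
Cluster 1, guide 4: tgtTATCGCGCAGCACtttg
Cluster 2, guide 1: cgcggcccaCGGGGAACTGC
Cluster 2, guide 2: gcccaCGGGGAACTGCaggc
Cluster 2, guide 3: CGGGGAACTGCaggccggcc
Cluster 2, guide 4: ggccggcctGCAGTTCCCCG
Cluster 3, guide 1: AAGAAGCTAGTTCTAcggga
Cluster 3, guide 2: AAGAAGCTAGTTCTAtggga
Cluster 3, guide 3: TAGAACTAGCTTCTTctgca
Cluster 4, guide 1: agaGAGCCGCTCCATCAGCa
Cluster 4, guide 2: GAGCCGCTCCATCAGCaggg
Cluster 4, guide 3: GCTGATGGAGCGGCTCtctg
Cluster 5, guide 1: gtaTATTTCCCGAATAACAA
Cluster 5, guide 2: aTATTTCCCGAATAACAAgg
Cluster 5, guide 3: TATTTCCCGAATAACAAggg

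Where a scarce guide overlapped another guide, that guide was often scarce too, although few scarce guides had any overlap. The 4 guides of cluster 1 lay within 27 bases and had 51, 22, 22 and 97 input reads, and none had a survivor read. In cluster 2 the 4 guides lay within 29 bases and had 28, 17, 18 and 1 input reads, with 0, 48, 20 and 0 survivor reads. Cluster 3 had 34, 97 and 32 input reads, cluster 4 had 10, 12 and 7, and cluster 5 had 6, 75 and 45, and none of these 9 guides had a survivor read. Guides 1 and 2 of cluster 3 differ in a single base and each overlaps guide 3 through the same stretch. No further library guide overlapped clusters 1, 2, 4 or 5, while 1 guide outside the scarce set overlapped cluster 3. None of these guides was found in the windows around gene starts described below, and their genes are not given.

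Of the 3740 scarce guides, 182 overlapped some other guide of the library, or 4.87% (95% exact binomial interval 4.20 to 5.61%), against 276 of 16753 comparison guides, or 1.65% (1.46 to 1.85%). Among those with any overlap, 77 of the 182 scarce guides overlapped another scarce guide, or 42.3% (35 to 49.8%). For the comparison guides, 18 of 276 overlapped a scarce guide, or 6.52% (3.91 to 10.1%). Counted by partner, 94 of 241 partners of scarce guides were scarce, or 39.0% (32.8 to 45.5%), and 26 more had no input reads at all. Each of the 47 pairs of scarce guides enters this count, and the partner counts below, from both ends. For comparison guides 18 of 309 partners were scarce, or 5.83% (3.49 to 9.05%). In the whole library 4.70% of guides were scarce, which lies inside the interval for comparison guides and below that for scarce guides. Of the 1553 library guides with any overlap, 182 were scarce, or 11.7% (10.2 to 13.4%). That share lies above the interval for comparison guides and below that for scarce guides. These intervals treat guides as independent draws, which overlapping guides are not, and they measure no spread between libraries.

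From the scarce guides upward, the share of scarce partners fell step by step as the guide itself had more input reads. It was 23.8% (29 of 122 partners) for guides with 100 or more but under 200 reads. It was 12.3% (28 of 227) from 200 to under 400 and 8.03% (35 of 436) from 400 to under 800. Guides with 1201 to 10000 reads had 2.69% (11 of 409). The median input reads of the partners were 101 for scarce guides and 760 for comparison guides. Guides with no input reads had scarce partners in 26 of 90 cases, or 28.9%, and partners that also had no reads in 36. Their share of scarce partners was thus not above that of the scarce guides themselves.

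The 77 scarce guides that overlapped one another formed 35 clusters: 30 of 2 guides, 3 of 3 guides and 2 of 4. The clusters held 47 pairs, 25 of them on 1 strand and 22 across strands. Partners on the same strand, which share bases read in the same direction, were scarce in 36.8% (50 of 136). Partners on the opposite strand, whose guide sequences are the reverse complement of each other over the overlap, were scarce in 41.9% (44 of 105; 95% interval 32.3 to 51.9%). The corresponding shares for comparison guides were 4.71% and 7.19%. By length of overlap the share was 37.6% (27.4 to 48.8%) for 14 or 15 shared bases, 39.5% (28.8 to 51%) for 16 or 17 and 40.0% (28.9 to 52%) for 18 to 20, steps that are small beside these intervals. With 12 or 13 shared bases, a length at which more matches between unrelated sites are possible, it was 15.6% (30 of 192).

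Near-identical guides showed a like pattern. Among guides that differed from a scarce guide by a single base substitution, 54 of 215 were scarce, or 25.1% (19.5 to 31.5%), and 30 had no input reads. For comparison guides these were 14 of 339, or 4.13% (2.28 to 6.83%), and 0. Having such a neighbour was itself more frequent among scarce guides, at 4.52% (169 of 3740), than among comparison guides, at 1.92% (322 of 16753). Guides this alike can be directed to copies of a gene family, and whether reads of 1 were counted for the other was not tested.

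A small part of the scarce guides could be tied to genes. The match to proteins that had been planned was not run, and this search was chosen in its place after the counts were seen. All guides were searched, with the NGG motif required after the guide, in RefSeq windows of GRCm38.p6 that run from 250 bases before to 50 bases after gene starts. Of 637 guides found in the 32851 windows, 54 were scarce. Guides found at 1 place inside the span of 1 protein-coding gene numbered 569, in 425 genes, and 45 of these were scarce, or 7.91% (5.83 to 10.4%), in 36 genes. These windows lie around gene starts, so the placed guides are not a random part of the library. Whether a placed guide has another site outside the windows was not analysed, and the table gives gene spans without exons, so exon, intron or UTR is not stated. The scarce guides placed in a gene with at least 2 of them, or in a gene of the lists described below, are shown because the counts by gene rest on them, with the 12 PAM-proximal bases (positions 9 to 20) in capitals.
Srp9, chr1:182124903-182124922, plus strand: gatgcctcAGTTCCAGACCT
Srp9, chr1:182124921-182124940, plus strand: ctgggaggAGTTCAGCCGGG
Srp9, chr1:182124969-182124988, minus strand: tgcagcgaCTCACCTTCATG
Rps28, chr17:33824333-33824352, minus strand: ctgtaggtAACCAAAGTGCT
Rps28, chr17:33824431-33824450, minus strand: ccatcaagCTGGCTAGGGTG
Rpl12, chr2:32961818-32961837, plus strand: gaccccaaCGAGGTCAAAGT
Psma7, chr2:180042307-180042326, minus strand: cttccaagTGGAGTACGCGC
Polr2l, chr7:141475071-141475090, minus strand: gaagatcgTCGGCAACAAAT
Polr2h, chr16:20717973-20717992, plus strand: gaaggcaaGAAATTTGACCG
Triap1, chr5:115341321-115341340, minus strand: caaaccagCGGTTGAAGCAC
Triap1, chr5:115341337-115341356, plus strand: tttgctgaGAAGTTCCTCAA
Oip5, chr2:119618150-119618169, plus strand: tcactcacTGGAGAAGGCCA
Oip5, chr2:119618231-119618250, plus strand: gcaccgcgCGCAATGAAACA
H4c8, chr13:23531115-23531134, plus strand: atgtctggTCGTGGCAAGGG
H4c8, chr13:23531136-23531155, plus strand: ggtaaaggTCTTGGCAAAGG
Ndufa1, chrX:37191015-37191034, plus strand: tgtacgcaGTGGACACCCCG
Vmn1r125, chr7:21272193-21272212, plus strand: taaatccaTGAAAACCACTG
Btbd35f16, chrX:3956794-3956813, minus strand: gcgaaaaaGAAACAGTTTGG
Btbd35f16, chrX:3956797-3956816, minus strand: caagcgaaAAAGAAACAGTT
Btbd35f16, chrX:3956828-3956847, plus strand: aatgtagcTGGCTCCGGCTA
Btbd35f16, chrX:3956885-3956904, minus strand: tcagcaggGTCTTGAGATGC

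Guides to the cytosolic ribosome were all scarce among the few that could be placed. Both placed guides of Rps28, a protein of the small ribosomal subunit, were scarce, with 12 and 25 input reads, and the guide with 12 had 39 survivor reads. The placed guide of Rpl12, a protein of the large subunit, had 40 input reads and no survivor reads. Over this list 3 of 3 placed guides were scarce, with a median of 25 input reads, against a median of 920 over all 569 guides placed in a gene. These 3 guides lay in 2 genes. The list of the mitochondrial ribosome had 0 of 9 placed guides scarce, in 6 genes, with input reads from 185 to 2260 and a median of 735. Over all guides placed in a gene 7.91% were scarce, and the 2 lists were not tested against each other. The lists were written with earlier results of these data known, and most of their genes had no placed guide.

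In the other lists the placed guides were few, and their counts stand beside the 45 of 569, or 7.91%, over all guides placed in a gene. The placed guide of Psma7, a subunit of the proteasome core, had 4 input reads and was the only placed guide of the proteasome list. Polr2l and Polr2h encode small subunits of RNA polymerase. Of the 4 placed guides of Polr2l, 1 had 18 input reads and the other 3 had none, and the placed guide of Polr2h had 72, so 2 of 5 placed guides of the RNA polymerase list were scarce. In respiratory complex I, 1 of 5 placed guides was scarce: Ndufa1 had guides with 27, 592 and 688 input reads; the guide with 592 also had no survivor reads. In the DNA replication list 0 of 2 placed guides were scarce, and 1 of them had no input reads. No guide could be placed for the lists of the Ragulator-Rag-mTORC1 pathway, its inhibitors, pyroptosis, macrophage growth and identity, growth suppressors, the spliceosome, the chaperonin, tRNA synthetases, the vacuolar ATPase and the exosome, so nothing is given for them.

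The rule for named genes asked for at least 3 placed guides, all scarce. Applied to the window matches, it was met by 1 of the 29 genes with that many placed guides, Btbd35f16, a member of a multicopy gene family on the X chromosome. Its guides had 78, 5, 62 and 55 input reads, and 1 of them had survivor reads, 25. All other genes in this account were named because they held a scarce guide, after their values were seen. Srp9, a subunit of the signal recognition particle that directs secreted and membrane proteins to the endoplasmic reticulum, came next. Its 4 placed guides had 35, 66, 48 and 273 input reads, 3 of them scarce, and none had a survivor read.

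Placed guides of the same gene tended to be scarce together. In genes with at least 2 placed guides, 15 of 22 scarce guides had another scarce guide in the gene, or 68.2% (45.1 to 86.1%). With a limit of 49 input reads the share was 42.9% (17.7 to 71.1%). Counted from each scarce guide in turn, with overlapping pairs left out, 24 of 40 same-gene guides were scarce, or 60.0% (43.3 to 75.1%). In 4 more entries the same-gene guide had no input reads. Without Btbd35f16 the share was 14 of 30, or 46.7% (28.3 to 65.7%). In these counts a pair of scarce guides enters from both ends, and any guide can enter more than once. The intervals treat the entries as independent, which they are not. For comparison guides 0 of 68 same-gene guides were scarce, which allows a share of up to 5.28% (exact 95% bound). The median input reads of same-gene guides were 58.5 for scarce guides and 918 for comparison guides. With so few genes, these shares rest on 13 of the 103 genes that had at least 2 placed guides.

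The remaining genes with a scarce guide had varied roles. Oip5, a centromere protein needed to load new CENP-A, had guides with 54 and 4 input reads, and Ska2, a kinetochore protein, had 1 guide with 23. Haus2, of the augmin complex of the mitotic spindle, had 57 reads. Triap1, a mitochondrial protein, had guides with 21 and 1 reads beside guides with 0 and 308. Tomm20, a receptor of mitochondrial protein import, had guides with 42 and 473, and Sdhd, a subunit of succinate dehydrogenase, had 85. Eif3i, a subunit of translation initiation factor eIF3, had 52 reads and Ncbp2, of the nuclear cap-binding complex, had guides with 30 and 262. Cdc123, which helps to assemble the initiation factor eIF2, had 13. Nop53 and Nol11, which act in making ribosomes, had 99 and 81. Ube2m, the conjugating enzyme of NEDD8, had 71 and Ciao2b, of cytosolic iron-sulfur assembly, had guides with 46 and 167.

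Some histone and receptor genes held scarce guides. The histone genes H4c8 and H2ac13 had scarce guides with 95 and 36 reads and with 52 reads. Vmn1r125, which encodes a vomeronasal receptor, had a guide with 7 reads, the only placed guide of the vomeronasal receptor list. The only placed guide of the olfactory receptor list was not scarce, with 810 reads. Apobec2, a gene of muscle, had a scarce guide with 97 reads beside guides with 1460 and 2119, so low input reads were not shared by its guides. Onecut1, a transcription factor of liver and pancreas, had 1 guide with 37 input and 25 survivor reads. The other genes with a scarce guide, Kin, Lin52, Gm21936, Cert1, Mup-ps12, Etv6, Zfp131, Ankrd55, Zfp830 and 2810004N23Rik, had 1 each, with 11 to 97 input reads.

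Guides found at 2 or more places in the windows were scarce in 9 of 39 cases, or 23.1% (11.1 to 39.3%), against 45 of 598 guides found at 1 place, or 7.53% (5.54 to 9.94%). The intervals do not overlap, with 9 guides behind the first share. Several of these 9 are guides to gene families. Of these, 1 with 17 input reads lay in 6 vomeronasal receptor genes and another, with 90, in 4 of them. The second of these had 135 survivor reads, and the other 8 had none. Cas9 cuts at several places in the genome of cells with such a guide, and the part that this has in their low input reads was not tested.

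The base next to the PAM set the scarce guides apart only weakly, with a difference under 2 percentage points for each base. At position 20, G was found in 53.9% of scarce guides (2016 of 3740; 52.3 to 55.5%) and in 55.6% of comparison guides (9319 of 16753; 54.9 to 56.4%). The difference was -1.72 percentage points, with a 95% interval (Newcombe, guides taken as independent) from -3.49 to 0.0399. It was -2.62 points (-4.04 to -1.20) with guides under 200 input reads and -1.98 points (-3.77 to -0.20) without guides that carry the short motifs described below, intervals that exclude 0. Other alternatives had intervals that include 0. These were -2.00 points (-4.18 to 0.16) with a limit of 49 reads and -1.77 points (-3.68 to 0.13) from 10 reads. Against guides with 500 to 1500 reads it was -1.30 points (-2.97 to 0.37), and with 1 scarce guide per cluster -1.46 points (-3.24 to 0.31). C at position 20 was found in 11% against 9.28%, a difference of 1.68 points (0.620 to 2.81), and A in 23.2% against 21.5%, a difference of 1.70 points (0.237 to 3.21). T was found in 12% against 13.6%, a difference of -1.66 points (-2.79 to -0.466). Seen from the library, 5.39% of guides ending in C were scarce, 4.87% of those ending in A, 4.59% of those ending in G and 4.35% of those ending in T. Just outside the set, from 100 to under 150 input reads, G at position 20 was found in 51.8% of guides (49.1 to 54.4%).

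The G plus C count of positions 9 to 20 was slightly lower in scarce guides. Its mean was 5.84 (SD over guides 1.48) in scarce guides and 6.04 (SD 1.44) in comparison guides, with a median of 6 in both. The difference was -0.20 bases (95% interval -0.25 to -0.15), small beside the spread over guides. The PAM-distal positions 1 to 8 differed by -0.23 (-0.27 to -0.18), so the difference was no larger next to the PAM. By input reads, the mean of positions 9 to 20 was 5.90 at 1 to 9 reads and 5.94 at 10 to 29. It was 5.76 at 30 to 49, 5.86 at 50 to 69 and 5.72 at 70 to 99. From 100 to under 150 reads, outside the set, it was also 5.72, so the lower count was not particular to scarce guides. Of guides with 0 to 2 G or C bases at positions 9 to 20, 8.90% were scarce (34 of 382), against 4.65% with 6 (1008 of 21700) and 2.85% with 9 (88 of 3085). At 10 the share was 4.76% (33 of 693; 3.30 to 6.62%) and at 11 or more it was 8.97% (7 of 78; 3.68 to 17.6%), so it did not fall throughout.

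Base by base, A and C differed most. The counts of single bases and of runs were looked at after the values were seen. Scarce guides held a mean of 6.13 A per guide against 5.62 in comparison guides, a difference of 0.50 (95% interval 0.43 to 0.58), and 4.69 C against 5.05, a difference of -0.36 (-0.43 to -0.29). G differed by -0.07 (-0.13 to -0.00) and T by -0.08 (-0.14 to -0.02). A was more frequent in scarce guides at 19 of 20 positions and C was less frequent at 17. The largest differences were for A at position 11, 34.7% against 30.2%, and for A at position 18, 28.3% against 24.1%.

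The share of scarce guides rose with the number of A bases. It was 3.40% (117 of 3438) with 0 to 2 A, 4.15% (681 of 16419) with 5, 5.35% (641 of 11985) with 7 and 8.30% (127 of 1530) with 10. With 11 or more A it was 13.8% (100 of 724; 11.4 to 16.5%). The median input reads of all guides in these groups fell from 1223 to 1028, 831, 576 and 397. The most A-rich scarce guides had 13 A, and of the 7 such guides those with the fewest and the most input reads and the one with the most survivor reads are shown, with A in capitals.
A-rich guide 1: AAAgAAggAAAgtAAAAAgg
A-rich guide 2: tAAAcAAgAtcAAAAAAcAg
A-rich guide 3: AAcAgAAgAAAAAAAgctAg

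These 3 guides had 1, 95 and 94 input reads and 0, 0 and 85 survivor reads. A run of AAAA was found in 9.47% of scarce guides (354) and 5.69% of comparison guides (954). The hexamer AAGAAG was found in 2.11% of scarce guides (79) against 0.800% (134), and 10.9% of the 725 library guides with it were scarce. Runs of other bases differed less: CCCC was found in 3.45% against 4.24%, GGGG in 2.11% against 2.58% and TTT in 11% against 10.4%. No scarce guide held TTTT, which stops transcription by RNA polymerase III, but only 24 guides of the library did. Guides ending in TT were scarce in 6.16% of 438 cases (4.10 to 8.84%) and guides ending in GG in 4.80% of 9699 (4.39 to 5.25%). Both intervals hold the 4.70% of the whole library.

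A group of scarce guides carried short motifs that were almost absent from well-represented guides. The motifs, read on the guide strand as written, were TTCGAA anywhere, TCTC or AGACG at the first base, and CGTCTC or GAGACG anywhere. CGTCTC and GAGACG are the strands of the recognition sequence of BsmBI, an enzyme widely used to clone guides. Only 14 library guides held either of these 2 as written, of which 13 had no input reads and 1 was scarce. The planned results named no motifs, so these counts are a description only. Of the 79633 library guides 730 carried a motif: 618 had no input reads, 88 were scarce and 24 had more than 99 reads. The scarce share was 12.1% (9.78 to 14.6%), against 4.70% of the library. None of the 16753 comparison guides carried one. The 88 made up 2.35% of the scarce guides (1.89 to 2.89%). For TTCGAA, 33 of the 36 guides with any input reads were scarce. Of the 33, the guide with the most input reads and 1 of those with a single read are shown with the motif in capitals, with the guide above the limit that had the most reads.
TTCGAA guide with 81 input reads: tttgagTTCGAAacacgaca
TTCGAA guide with 1 input read: TTCGAAacctacctttcccg
TTCGAA guide with 1270 input reads: cTTCGAAttaccatgcaagg

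In the survivors the first of these had 68 reads, the second 0 and the third 27. Of the 88 scarce guides with a motif, 82 had no survivor reads, or 93.2% (85.7 to 97.5%). Their median input was 10 reads, against 37 over the set. Of all scarce guides, 93.1% with 1 to 9 input reads and 89.2% with 10 to 29 had none.

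In the survivors most scarce guides were not seen. The input library held 86266754 reads and the survivor library 16269091, and a count of 0 in the survivors allows an abundance of up to 0.184 RPM, where RPM is reads scaled to a library total of 1000000 (3 counts, counting error only). Scarce guides had a median of 37 input reads, with quartiles of 15 and 65, and together held 0.179% of the input reads. No survivor reads were found for 3022 of 3740, or 80.8% (79.5 to 82.1%), against 542 of 16753 comparison guides, or 3.24% (2.97 to 3.51%). Of all 78361 guides with input reads, 11.9% had none. The share fell with input reads inside the set: it was 93.1% at 1 to 9 reads, 89.2% at 10 to 29, 80.6% at 30 to 49, 74.2% at 50 to 69 and 66.4% at 70 to 99. Just above the limit, from 100 to under 150 reads, it was 58.8%. At the limit itself 13 of 19 guides with 99 reads and 12 of 17 guides with 100 reads were absent. The rule fixed the input reads of both sets, so the excess of absence over comparison guides is a description and is not read as loss in the survivors.

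Although most single guides were not seen, the set as a whole held about the same share of reads in both libraries. Scarce guides held 0.185% of the survivor reads (30116 reads), so the ratio of their share of survivor reads to their share of input reads was 1.04. Comparison guides had a ratio of 0.979. The ratio was 2.73 for guides with 1 to 9 input reads, 1.16 for 10 to 29, 1.07 for 30 to 49, 0.989 for 50 to 69 and 0.940 for 70 to 99. The rule fixed the input side of this ratio, so ratios above 1 are not read as enrichment. The ratio depends on scaling: it was 1.20 with TMM factors and 1.25 with DESeq2 size factors.

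The survivor reads of the set came from few guides. The 718 scarce guides with survivor reads had a median of 23 reads, with quartiles of 9 and 50, and 89 of them had 1 to 3. In comparison guides with survivor reads the median was 147, with quartiles of 68 and 265. The 80 scarce guides with at least 100 survivor reads held 44.6% of the survivor reads of the set. Among guides with at least 1 survivor read, the median rose with input reads inside the set, from 12.5 at 1 to 9 input reads and 21 at 10 to 29 to 25.5 at 70 to 99. At least 4-fold higher shares of reads in the survivors were found for 250 scarce and 156 comparison guides, where 1.86% of all guides with input reads passed. The rule used the input side of this ratio, so nothing is read from that count.

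The 3 scarce guides with the most survivor reads are shown because they carry the extreme of these values, with positions 9 to 20 in capitals.
Rank 1: tcacatatTTCTCTAACCTG
Rank 2: tacacccaCTGCTTTATTAG
Rank 3: tgctcggtCCAGAAAGTCGA

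The first had 5 input reads and 350 survivor reads, a ratio of shares of 371 with a 95% exact interval from 158 to 1150.3 that covers counting error only. The second had 68 input reads and 345 survivor reads, a ratio of 26.9 (20.7 to 35.4), and the third had 48 and 331, a ratio of 36.6 (27 to 50.6). All other scarce guides had at most 324 survivor reads, while the highest comparison guide had 1598. None of them was found in the windows around gene starts.

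Absence from the survivors was also compared between kinds of scarce guides. By overlap it was 87.0% (67 of 77; 77.4 to 93.6%) for those that overlapped another scarce guide, 78.1% (82 of 105; 69 to 85.6%) for those that overlapped only other guides, and 80.7% (2873 of 3558; 79.4 to 82.0%) for those in no overlap. By A content it was 79.5% with 0 to 2 A and 76.0% (66.4 to 84.0%) with 11 or more. Of the 45 scarce guides placed in a gene, 8 had survivor reads. Each of these intervals by overlap, and that for 11 or more A, holds the 80.8% of the whole set. Some other kinds lay outside it: scarce guides with a short motif were absent more often, at 93.2%, as were those with 3 C bases, at 84.3% (81 to 87.3%), and with 5 G bases, at 83.7% (80.9 to 86.2%). Those with 8 G or C bases at positions 9 to 20 were absent less often, at 75.1% (70.3 to 79.5%), as were those with 8 G bases, at 74.9% (68.6 to 80.5%), and with 9, at 72.4% (62.8 to 80.7%). These kinds were picked out after their values were seen, among many compared. Scarce guides with a short motif had a median of 10 input reads, against 37 over the set, and absence varied with input reads.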

How the data were processed

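The authors deposited raw read counts per 20-base guide barcode for 2 libraries, per the file headers, with no normalization. Barcodes were amplified from genomic DNA by PCR and sequenced, per the labels' protocols. The counting tool, and what the input library combined, was not given in the sources used here. No molecular identifiers are described, so reads are not separate molecules and intervals of read ratios cover counting error only. Intervals of shares (exact Clopper-Pearson, 95%) treat guides as independent.

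Libraries were joined by barcode. Ratios were scaled by library totals, with edgeR 4.0.16 TMM and DESeq2 1.42.0 factors as alternatives and no model fitted. The planned match of guides to proteins was not run, and the plan named no genes in that case. Exact matches to RefSeq windows of GRCm38.p6, with the gene spans of that assembly, were used in its place. The set, lists and rules were chosen with earlier results of these data known. The rule for named genes was at least 3 placed guides, all scarce, then Ragulator-Rag-mTORC1 and pyroptosis genes with a scarce guide. Single guides were the 3 with most survivor reads and the largest clusters. The A content, partner shares and placing by windows were added after the counts were seen. The overlap search, the placing, the search for near-identical guides and the interval of a base difference were tested on simulated data. Python 3.11.15, pandas 2.3.3 and scipy 1.17.1 were used.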

Additional observations from a re-analysis of the deposited data

How the results depend on the processing

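No paired analysis was possible because the groups are single libraries without replicate numbers, which also leaves no replicate to drop. The planned match to proteins and its alternatives were not run; values by gene below come from the window matches. Of 62 alternatives, 37 lay inside the main interval (counts: within 1.5 times) and 25 moved, and the cause was not tested. A change of sign was found for 0, but only differences can change sign. Shares, ratios and counts cannot, so for them this says nothing. All 20 positions in place of positions 9 to 20 moved the G plus C difference from -0.20 to -0.43. The share of scarce guides overlapping another, 2.06%, moved to 1.60% from 10 input reads, 2.75% with 12 shared bases, 1.39% with 16 and 1.23% on the same strand only. The partner share, 39.0%, moved to 29.8% with a limit of 49 reads, 29.6% from 10 reads and 28.6% with 12 bases. The excess of guides without survivor reads over comparison guides, 77.6 points, moved to 84.4 with a limit of 49 reads, 65.9 with guides under 200, 75.1 from 10 reads, and 76.1 against guides with 500 to 1500 reads. The scaled ratio, 1.036, moved to 1.203, 0.967 and 1.003 with those 3 read limits, 0.782 as a median with a pseudocount of 1 RPM, 1.200 with TMM and 1.246 with DESeq2 factors, and was 1.058 and 1.054 relative to comparison guides of 800 to 1200 and 500 to 1500 reads. It thus lay on either side of 1. The share of placed scarce guides with another in the gene, 68.2%, moved to 42.9% with a limit of 49 reads. The 8 scarce guides in the gene lists moved to 18 when guides in several genes counted for each and to 2 in genes with at least 3 placed guides. The A difference, 0.50, moved to 0.39 with a limit of 49 reads and 0.61 with guides under 200. At 1 to 9 reads counting error is large, and 613 scarce guides lie there.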

Other observations

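Scarce guides were also more frequent among guides with certain ends, which were picked out after the values were seen. Of 331 guides ending in TGC, 31 were scarce, or 9.37% (95% exact interval 6.45 to 13%), and of 1873 ending in GC, 120 were, or 6.41% (5.34 to 7.61%), against 4.70% of the library. Of these scarce guides, 23 of 31 and 95 of 120 had no survivor reads. Of guides with TCTC at the start, 37 were scarce and 14 of 401 had more than 99 input reads. With AGACG at the start 17 of 101 were scarce and 7 had more than 99. One of these 17 was placed in Cert1, which encodes a ceramide transfer protein, at chr13:96572006-96572025 on the plus strand, with 42 input reads and no survivor reads.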
